A study of Mus musculus with 2 samples.

Results

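Trabecular beam cells are fibroblast-like cells that cover the collagen and elastin beams of the trabecular meshwork (TM), the tissue through which aqueous humor leaves the eye on its way to Schlemm's canal. They were taken from single-cell RNA sequencing of the anterior eye segment as cells that hold at least 2 unique molecular identifiers (UMIs, 1 per captured transcript) of Edn3, at least 2 of Gpc3 and at least 5 of Dcn. Edn3 plus Gpc3 had to reach Myoc plus Chil1, Kera had to lie under 5 per 10000 UMIs, and no UMI of Ptprc or Cdh5 was allowed. Of 20768 cells with at most 8% mitochondrial UMIs and at least 1000 UMIs, 906 met this rule, 401 of 10399 in NC-Foxc2-/- mice and 505 of 10369 in Foxc2fl/fl control mice. The NC-Foxc2-/- mice were Foxc2 flox/flox;Wnt1Cre+, in which Cre acts in the neural crest lineage that gives rise to the meshwork. The control mice were Foxc2 flox/flox without Cre, so both groups carry the floxed alleles. Both are labelled as 4 weeks old (3 to 4 in the protocol) and of mixed strain, 4 to 6 mice were pooled into 1 library per group, the iris was removed, and NC-Foxc2-/- mice of moderate ocular phenotype were chosen. With 1 library per group no test between groups was possible, and each difference below is one between 2 libraries, with 95% intervals that cover counting error only.

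Edn3 encodes endothelin-3, a secreted peptide that acts on endothelin receptors, and Gpc3 encodes glypican-3, a heparan sulfate carrier of the cell surface that binds growth factors. The meshwork generates resistance to outflow, and its juxtacanalicular tissue lies beside Schlemm's canal. The Forkhead factors Foxc1 and Foxc2 are known for their roles in the periocular mesenchyme from which the meshwork forms. Juxtacanalicular cells are marked by Myoc, which encodes myocilin, and by Chil1. In GRCm38 the protein-coding genes Edn3 and Gpc3 lie at chr2:174760619-174784042 and chrX:52272426-52613950 and Foxc2 at chr8:121116171-121118895.

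The NC-Foxc2-/- and control libraries held 11656 and 11285 barcodes. The 10399 and 10369 that passed the mitochondrial and UMI filters held a median of 6835 and 8078 UMIs. Beam cells held 2782016 UMIs in all in the NC-Foxc2-/- library and 3824217 in the control library, with medians per cell of 5744 and 5917 and of 2104 and 2182 genes. Xist averaged 353 against 204 counts per 1000000 UMIs (CPM) in beam cells and the Y-linked Ddx3y 55.7 against 89.4 CPM, genes that follow the sexes of the pooled mice, and the part of this in the results was not tested. Of 52 barcodes that occur in both libraries, 0 belonged to beam cells of NC-Foxc2-/- mice and 2 to those of control mice. Scrublet called 8 and 16 beam cells doublets, and these were kept.

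Beam cells made up 3.86% of the kept cells of NC-Foxc2-/- mice (95% exact binomial interval 3.49 to 4.24) and 4.87% of those of control mice (4.46 to 5.30). The shares stood in a ratio of 0.79. Among cells with at least 5 Dcn UMIs, the wider stroma, beam cells were 5.69% (5.16 to 6.25) in NC-Foxc2-/- mice and 8.81% (8.09 to 9.58) in control mice, a ratio of 0.65. The denominators moved as well, since NC-Foxc2-/- mice gave 3147 Kera cells and 429 corneal epithelial cells against 2103 and 1579 in control mice, and their part in these shares was not tested.

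The rule cuts through a continuum. Edn3 stood at exactly 2 UMIs in 108 of the NC-Foxc2-/- and 72 of the control beam cells, while 161 and 110 cells met all else with 1 Edn3 UMI. Gpc3 was at 2 UMIs in 58 and 104 beam cells, against 73 and 157 cells that were left out with 1 Gpc3 UMI. A Cdh5 UMI alone removed 38 and 26 cells. Neither Myoc nor Chil1 was seen in 254 and 371 of the beam cells, and no Kera in 353 and 481.

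The label was checked against markers and against the study's own clusters. Pdgfra, the receptor of platelet-derived growth factor A, was seen in 71.1% of NC-Foxc2-/- and 72.5% of control beam cells at 374 and 272 CPM, but Kera cells, the corneal keratocytes, held 462 and 300 CPM of it. Fmo2, a flavin-containing monooxygenase, was seen in 11.97% and 17.0% of beam cells at 24.8 and 32.2 CPM, and Tmeff2 in 8.98% and 5.54%. The identity of these cells thus rests on Edn3 and Gpc3, which the rule used, more than on Pdgfra, Fmo2 or Tmeff2. The 5 fibroblast markers Pi16, Clec3b, Cd34, Mfap5 and Tnxb summed to 1042 and 1009 CPM. A UMI of them was seen in 84.0% and 87.3% of beam cells. By matching the cells of the study's violin plots to barcodes, 199 of the NC-Foxc2-/- and 287 of the control beam cells lay in its cluster TM-1, and 82 and 96 in TM-2. TM-3, which the study sets apart by Chad and Chil1, held 35 and 32, the uveal meshwork 41 and 46, and its fibroblasts 18 (4.49%) and 5 (0.99%). The beam cells were 40.3% and 47.6% of the matched TM-1 cells and 32.3% and 51.6% of those of TM-2.

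Some barcodes also carried transcripts of other cells. At a limit chosen after seeing the data, 20 or more per 10000 UMIs from the markers of any of 10 other classes, 59 NC-Foxc2-/- beam cells (14.7%) and 82 control beam cells (16.2%) were mixed. Their median depth was 9203 and 11128.5 UMIs, against 5536.5 and 5646 in the others, and Scrublet had called 7 and 16 of them. The 5 epithelial markers Krt12, Krt14, Krt5, Krt13 and Cdh1 summed to 531 and 3014 CPM over all beam cells, and 9 and 22 cells carried 94.7% and 97.8% of these UMIs. Without mixed barcodes, 342 and 423 beam cells were left and the same markers summed to 33.0 and 82.1 CPM. Over all beam cells the 4 endothelial markers stood at 7.91 and 3.40 CPM, the 3 T and NK markers at 3.24 and 4.71 CPM and the 5 macrophage markers at 23.4 and 54.1 CPM. The 4 smooth muscle markers summed to 1226 and 1132 CPM over all beam cells and to 163 and 189 CPM without mixed barcodes. Results are therefore given over all beam cells and, where the mixed barcodes moved them, without these.

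**Figure D1:**
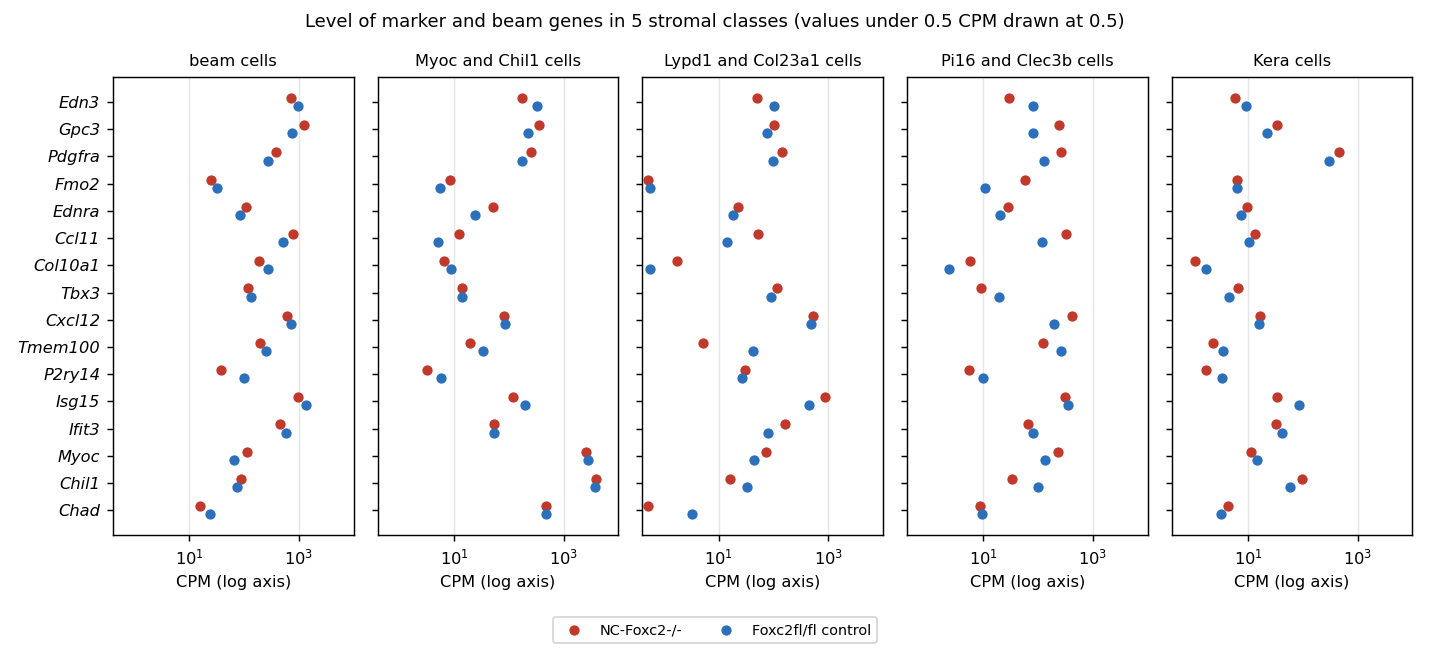
Level of 16 genes (CPM, log axis) in beam cells and in 4 other stromal classes, with NC-Foxc2-/- in red above Foxc2fl/fl control in blue. Ccl11 and Col10a1 were higher in beam cells than in the 4 other classes in both libraries, at 795 and 507 CPM and at 188 and 269 CPM, while Myoc, Chil1 and Chad led in the Myoc and Chil1 cells.

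Beam cells were set beside 240 NC-Foxc2-/- and 274 control cells rich in Myoc and Chil1. Both classes were chosen by their own expression, so what follows is a description and no test. A gene with 50 or more UMIs in each library counted as higher in beam cells when its CPM was at least 2 times that of the other class in both, and as lower at 0.5 times or less. Of 7422 genes measured this way 285 (3.84%) were higher and 198 (2.67%) were lower in beam cells. Against Lypd1 and Col23a1 cells the shares were 4.1% and 2.15%, against Pi16 and Clec3b cells 7.1% and 4.37%, and against Kera cells, which stood farthest from them by these counts, 17.2% and 8.29%.

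Ccl11, the chemokine eotaxin that draws eosinophils, differed most. It stood at 795 CPM in beam cells against 12.3 CPM in Myoc and Chil1 cells of NC-Foxc2-/- mice, and at 507 against 5.002 CPM in control mice. Col10a1, a short-chain collagen best known from hypertrophic cartilage, stood at 188 against 6.42 CPM and at 269 against 8.75 CPM. Tbx3, a T-box transcription factor, stood at 119 against 13.9 CPM and at 131 against 13.8 CPM. Each of these genes was thus at least 8 times as high in beam cells in both libraries. Cxcl12, the ligand of Cxcr4, was 7.46 and 8.26 times as high in beam cells in NC-Foxc2-/- and control mice, and Tmem100, a membrane protein, 9.63 and 7.44 times. At 3000 UMIs per cell, Ccl11 was seen in 40.9% and 30.8% of beam cells and in 1.21% and 0.77% of Kera cells, the level that free RNA and stray cells can give.

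The chemokines are part of a wider group. Of 19 cytokines and chemokines measured, 8 were higher in beam cells (Ccl11, Cxcl1, Cxcl10, Cxcl2, Cxcl5, Il33, Il6 and Tnfaip6) and 1, Csf3, was lower, with median log2 ratios of 0.72 and 1.09 in NC-Foxc2-/- and control mice beside 0.01 and 0.04 over all genes measured. Immediate early genes moved with them, with 7 of 27 higher in beam cells (Btg2, Egr2, Fos, Junb, Nr4a1, Socs3 and Zfp36) and Myc lower, at medians of 0.79 and 0.61, and their part in the cytokine levels was not tested. Ednra, the receptor through which endothelins contract cells, stood at 106 CPM in beam cells against 50.2 CPM in Myoc and Chil1 cells of NC-Foxc2-/- mice and at 84.98 against 24.2 CPM in control mice. Ednrb, the receptor that binds endothelin-3 with high affinity, gave 15 and 33 UMIs over all beam cells and 6 and 3 without mixed barcodes, so it was barely detected.

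Transcription factors of the meshwork that passed a limit were mostly higher in beam cells. Of 21 measured, 7 were higher in beam cells (Foxf2, Foxp2, Nr2f1, Nr2f2, Osr1 and Zeb2 among them) and Maf was lower, with median log2 ratios of 0.67 and 0.86. Nr2f1 and Nr2f2, orphan nuclear receptors, were 4.14 and 5.78 times and 4.41 and 6.27 times as high. Foxc1 was between the limits, at 223 against 149 CPM in NC-Foxc2-/- mice and 219 against 121 CPM in control mice. Genes of retinoic acid, a regulator of eye development, stood beside them, with 5 of 20 higher (Aldh1a2, Dhrs3, Rarb, Rbp4 and Rdh10) and Cyp26b1, an enzyme that degrades retinoic acid, lower.

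Listed collagens and matricellular genes that passed a limit mostly went the other way. Of 24 listed collagens 7 were lower in beam cells (Col1a1 and Col1a2 among them) and Col18a1 was higher. This list does not hold Col10a1, which was far higher in beam cells, as given above. Of 18 matricellular genes 7 were lower (Ccn3, Ccn4, Fn1, Matn4, Postn, Sparc and Thbs4) and Vcan was higher. Sparc, a collagen-binding glycoprotein, stood at 3182 against 9367 CPM in NC-Foxc2-/- mice and at 3509 against 10820 CPM in control mice. The cartilage and tendon genes Chad (15.8 against 470 CPM and 23.8 against 473 CPM), Tnmd (31.6 against 433 CPM and 30.1 against 320 CPM) and Cilp2 (2.88 against 209 CPM and 3.92 against 122 CPM) were among the lowest. Of 24 glaucoma and outflow genes 4 were higher in beam cells (Abca1, Cyp1b1, Gucy1a1 and Gucy1b1) and 5 lower (Aqp1, Col8a2, Ltbp2, Myoc and Svep1), of which Myoc helped to choose the other class. Cyp1b1, whose human form is mutated in congenital glaucoma, was 4.34 and 5.68 times as high in beam cells, and Gucy1a1 and Gucy1b1, the subunits of the nitric oxide receptor, 3.10 and 4.29 times and 9.41 and 6.73 times.

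Interferon response genes were the group with the largest count. Of 22 measured, 16 were higher in beam cells and 0 lower, with median log2 ratios of 1.65 and 1.79 in NC-Foxc2-/- and control mice. Isg15, a ubiquitin-like protein, stood at 959 CPM in beam cells against 118 CPM in Myoc and Chil1 cells of NC-Foxc2-/- mice, and at 1370 against 201 CPM in control mice. Ifit3, of the family that binds foreign RNA, stood at 459 against 52.9 CPM and at 572 against 54.6 CPM. Lypd1 and Col23a1 cells, of the uveal meshwork type, held as much Isg15 as beam cells in NC-Foxc2-/- mice (874 CPM) and less in control mice (436 CPM), and endothelial cells held it widely (57.7% and 63.1% of cells at 3000 UMIs per cell, against 64.8% and 71.4% of beam cells), so the level is not particular to beam cells.

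The promoters of 4 of these genes are shown because the letters GAAA, NN and GAAA in a row (N being any base), the core of the interferon-stimulated response element, occur in each of them. The windows run from 250 bases before to 50 after the start of the gene in the RefSeq annotation of GRCm38.p6, are written 5' to 3' along the gene, and carry the matches on either strand in capitals. A match on the opposite strand reads TTTC, NN and TTTC in a row. They lie at chr4:156200769-156201068 (minus strand) for Isg15, chr19:34640639-34640938 (plus) for Ifit1, chr19:34583279-34583578 (plus) for Ifit3 and chr12:26456403-26456702 (minus) for Rsad2.
Isg15: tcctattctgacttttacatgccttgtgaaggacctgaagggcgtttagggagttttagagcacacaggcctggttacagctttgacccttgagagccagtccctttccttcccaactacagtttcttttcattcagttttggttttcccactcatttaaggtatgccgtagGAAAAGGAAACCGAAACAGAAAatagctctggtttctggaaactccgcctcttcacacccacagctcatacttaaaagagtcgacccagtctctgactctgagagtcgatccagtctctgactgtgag
Ifit1: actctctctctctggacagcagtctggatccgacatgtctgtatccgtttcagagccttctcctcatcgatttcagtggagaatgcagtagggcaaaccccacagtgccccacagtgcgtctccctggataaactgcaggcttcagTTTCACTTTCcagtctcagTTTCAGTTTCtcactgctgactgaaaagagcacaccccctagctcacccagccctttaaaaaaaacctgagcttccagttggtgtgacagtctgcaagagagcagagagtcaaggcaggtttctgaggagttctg
Ifit3: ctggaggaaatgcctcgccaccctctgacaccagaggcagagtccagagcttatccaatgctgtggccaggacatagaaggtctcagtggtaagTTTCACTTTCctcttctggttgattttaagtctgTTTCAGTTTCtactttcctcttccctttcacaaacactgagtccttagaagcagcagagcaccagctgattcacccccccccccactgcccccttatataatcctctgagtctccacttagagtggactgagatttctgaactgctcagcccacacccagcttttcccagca
Rsad2: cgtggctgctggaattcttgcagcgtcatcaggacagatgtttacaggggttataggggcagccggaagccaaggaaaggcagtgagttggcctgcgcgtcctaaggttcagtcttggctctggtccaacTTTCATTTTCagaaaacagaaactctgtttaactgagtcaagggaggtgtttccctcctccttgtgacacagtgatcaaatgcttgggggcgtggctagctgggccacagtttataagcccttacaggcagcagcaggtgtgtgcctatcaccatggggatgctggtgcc
The Isg15 promoter holds 3 overlapping matches, beginning 78, 72 and 66 bases before the start, Ifit1 and Ifit3 hold 2 each and Rsad2 holds 1. Over the 27025 genes of the table, 1079 (3.99%) have a match in such a window. Of the interferon response list 20 genes are in the table and 12 (60%) have one, 7 of the 13 (53.8%) that were higher in beam cells and 5 of the 7 (71.4%) that were not. A match describes these letters and is not evidence of binding, and the motif did not separate the listed genes that were higher from those that were not.

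Beam cells varied among themselves in interferon response and immediate early genes in both libraries. In cells without mixed barcodes thinned to 3000 UMIs (318 of 342 and 412 of 423 cells were deep enough), the rank correlation of Isg15 with Ifit3 was 0.48 in NC-Foxc2-/- and 0.52 in control cells, and that of Fos with Junb 0.51 and 0.58. Fos and Junb are immediate early genes, which dissociation of tissue is known to raise. Isg15 with Fos, the only such pair computed across these groups, gave -0.30 and -0.24. Mt1 and Mt2, the metallothioneins, were tied at 0.77 and 0.68, and Ccl2 and Ccl7, chemokines for monocytes, at 0.48 and 0.46. Edn3 and Gpc3 gave 0.20 and 0.10, a value that the rule itself limits since it asks for both genes. Cells of a library share its preparation and its free RNA, so these values are descriptions.

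Genes of the same groups differed between the study's TM-2 and TM-1 among beam cells without mixed barcodes (79 and 188 cells in NC-Foxc2-/- mice, 90 and 276 in control mice). These clusters were made from the expression of the same cells, so no test applies. Of 4032 genes measured, 40 (0.992%) were higher in TM-2 in both libraries and 65 (1.61%) lower. Of 22 interferon response genes 9 were higher in TM-2, Cmpk2, Gbp2, Ifi35, Ifit2, Ifit3, Ifit3b, Isg15, Rsad2 and Usp18, and Irf1 was lower, with median log2 ratios of 0.97 and 1.10 beside -0.01 and -0.03 over all genes measured. Isg15 stood at 2378 CPM in TM-2 against 896 CPM in TM-1 in NC-Foxc2-/- mice and at 3766 against 1394 CPM in control mice. Ccl11 led, with 2427 against 590 CPM and 2265 against 332 CPM, so its level was nearer to that of the other library in TM-2 than in TM-1.

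Some immediate early and heat shock genes were lower in TM-2. Of 27 immediate early genes 6 were lower, Atf3, Egr1, Egr2, Fos, Jun and Klf2, and 0 higher, and of 18 heat shock genes 4 were lower, Dnajb1, Hspa1a, Hspa1b and Hspb1, and 0 higher. Fos stood at 518 CPM in TM-2 against 2263 CPM in TM-1 of NC-Foxc2-/- mice and at 322 against 2864 CPM in control mice. Hspa1a, the inducible Hsp70, stood at 664 against 2888 CPM and at 171 against 1670 CPM. Edn3 was nearly level between the clusters, at 846 against 916 CPM and 1095 against 1215 CPM, and Gpc3 was at 1788 against 1677 CPM and 1149 against 894 CPM. TM-2 beam cells were somewhat shallower, with median depths of 4853 and 5055.5 UMIs against 5592.5 and 5916 in TM-1, and with these cells thinned to 3000 UMIs 24 genes were higher and 34 lower, with 4 interferon response genes among the higher ones in place of 9. The part of dissociation in this split was not tested.

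**Figure D2:**
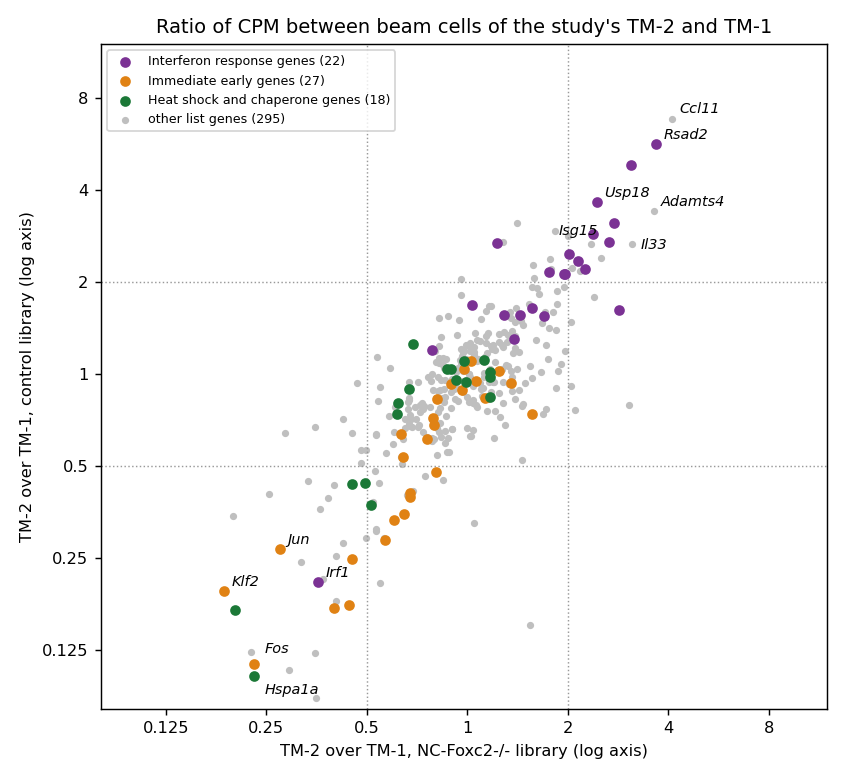
CPM ratio of beam cells in TM-2 over those in TM-1 in the NC-Foxc2-/- library (x, log axis) and in the control library (y, log axis), 1 point per list gene with 50 or more UMIs in each library; dotted lines mark 0.5 and 2. Most of the 22 interferon response genes lie to the upper right, with Irf1 to the lower left, and immediate early and heat shock genes reach to the lower left.

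The comparison of NC-Foxc2-/- with control beam cells opens with the deleted gene. Foxc2 gave 29 UMIs (10.4 CPM) in NC-Foxc2-/- beam cells and 109 UMIs (28.5 CPM) in control beam cells, a ratio of 0.37 (95% exact conditional binomial interval 0.23 to 0.56). Without mixed barcodes the ratio was 0.27 (0.16 to 0.44), and 4.68% of NC-Foxc2-/- and 18.4% of control cells held a UMI. At 3000 UMIs per cell these shares were 2.52% (1.09 to 4.90) and 9.71% (7.03 to 13.0), and Kera cells gave 2.72% and 2.06%, so the share in NC-Foxc2-/- beam cells was at the level of the Kera cells. The 3' tag counted here need not lie in the deleted part, so a residual level does not show a functional transcript. Foxc1, its paralog, stood at 223 and 219 CPM, a ratio of 1.02 (0.92 to 1.13).

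Among the markers, the rule used Edn3 and Gpc3, so their levels describe which cells were taken. Edn3 was at 715 CPM in NC-Foxc2-/- and 946 CPM in control beam cells, a ratio of 0.76 (0.71 to 0.80), and its median per cell without mixed barcodes was 7.25 against 10.3 per 10000 UMIs. Gpc3 was at 1245 and 738 CPM, a ratio of 1.69 (1.60 to 1.77), with medians of 12.3 and 8.02 per 10000. In Myoc and Chil1 cells Edn3 stood at 172 against 323 CPM and Gpc3 at 361 against 227 CPM, the same directions. The rule for these cells asked Myoc plus Chil1 to exceed Edn3 plus Gpc3, so it limits these levels as well. Pdgfra, which the rule did not use, stood in a ratio of 1.37 (1.259 to 1.498), and Fmo2 in one of 0.77 (0.57 to 1.04), an interval that includes 1.

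Over all beam cells 8656 genes had 50 or more UMIs, of which 194 (2.24%) were at least 2 times as high in NC-Foxc2-/- mice as in control mice and 275 (3.18%) at most 0.5 times, with a median log2 ratio of 0.01. The 12 lowest genes with at least 100 UMIs and 100 CPM were mostly genes of the corneal and conjunctival epithelium, Krt12 (253 against 1892 CPM), Krt15 (28.8 against 389 CPM) and Mal (5.75 against 190 CPM) among them. Sprr1a, a protein of the cornified envelope, had 0 UMIs against 1156, a ratio of at most 0.00357 with 3 UMIs in place of 0. Most of their UMIs lay in the mixed barcodes. Without those, Mal had 5 against 9 UMIs, Sprr1a 0 against 3 and Krt15 0 against 15, while Krt12 still counted as lower at 23 against 130 UMIs (10.8 and 49.0 CPM), as it did by 1.5 times or more in 6 of 7 other classes. In this set 158 of 7510 genes (2.1%) were higher and 136 (1.81%) lower, with a median log2 ratio of -0.03. Of the higher genes 120 were called in both sets, which is 61.9% of the calls over all beam cells and 75.9% of those without mixed barcodes. Of the lower genes 61 were, 22.2% and 44.9%.

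**Figure D3:**
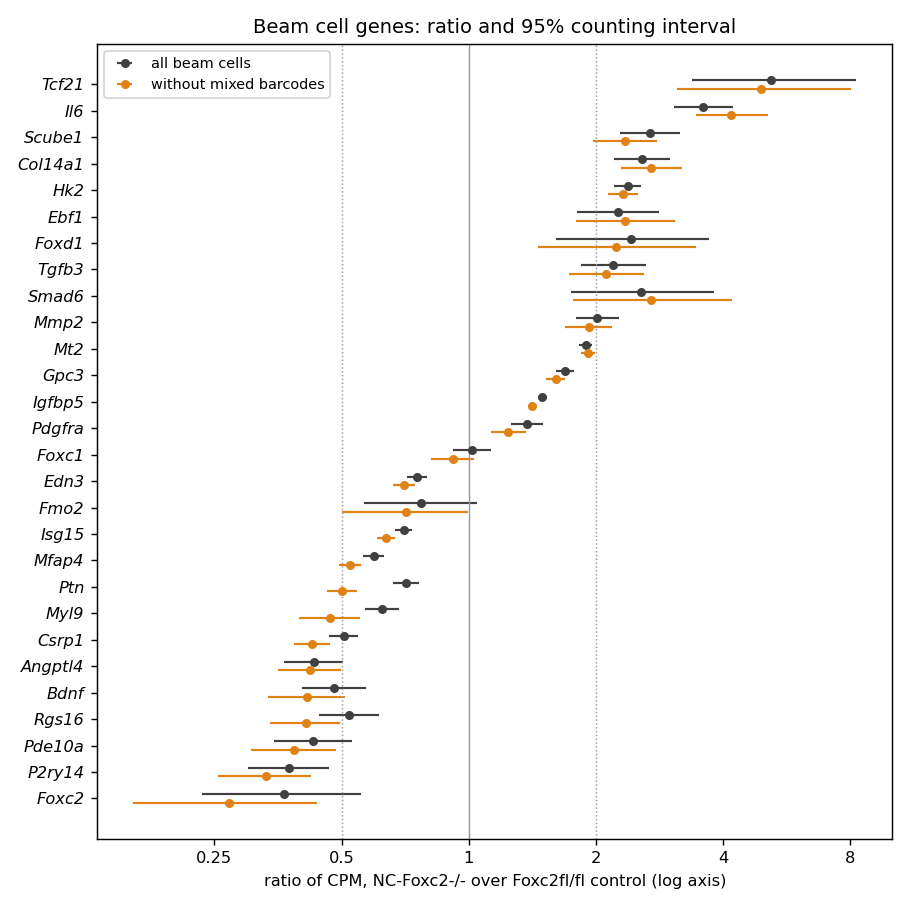
CPM ratio of NC-Foxc2-/- over Foxc2fl/fl control in beam cells (log axis) for 28 genes, with 95% counting intervals, over all beam cells (grey) and without mixed barcodes (orange); dotted lines mark 0.5 and 2. Tcf21, Il6 and Hk2 stay above 2 in both sets and P2ry14, Pde10a and Foxc2 below 0.5, while Csrp1 and Myl9 pass 0.5 only without mixed barcodes.

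Among genes with at least 100 UMIs and 100 CPM, P2ry14, Pde10a and Rgs16 had the lowest ratios once mixed barcodes were left out. P2ry14, a receptor for UDP sugars, gave 81 UMIs (38.2 CPM) in NC-Foxc2-/- and 307 UMIs (116 CPM) in control beam cells, a ratio of 0.33 (0.26 to 0.42). It was seen in 18.4% and 43.0% of cells as deposited and in 10.4% (7.25 to 14.3) and 26.7% (22.5 to 31.3) at 3000 UMIs per cell, against 0.30% and 0.86% of Kera cells. No cell dominated it, since the 2 highest cells held 7.41% and 4.23% of its UMIs. Pde10a, a phosphodiesterase of cyclic nucleotides, stood at 46.7 and 121 CPM, a ratio of 0.39 (0.31 to 0.49), and was lower by 1.5 times or more in 5 of 6 other classes. Rgs16, which shortens G protein signals, stood at 68.9 and 168 CPM without mixed barcodes (0.41, 0.34 to 0.50) and at 74.0 and 142 CPM over all beam cells (0.52), short of the limit.

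Secreted factors were also in this group without mixed barcodes. Bdnf, a neurotrophin, stood at 58.5 and 141 CPM, a ratio of 0.41 (0.34 to 0.51), and Angptl4, an inhibitor of lipoprotein lipase, at 87.3 and 208 CPM (0.42, 0.35 to 0.50). They were seen in 9.75% and 18.4% and in 18.6% and 32.5% of cells at 3000 UMIs per cell. The lower Bdnf lay in TM-1, at 48.1 CPM in NC-Foxc2-/- and 174 CPM in control beam cells. In TM-2 Bdnf went the other way, at 74.0 CPM (33 UMIs) and 26.1 CPM (13 UMIs). Ptger1, a prostaglandin E2 receptor, was at 13.2 and 30.5 CPM (0.43, 0.27 to 0.67), and the guidance receptor Robo2 at 6.13 and 17.3 CPM (0.35, 0.18 to 0.67).

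Genes of contraction and of the cytoskeleton depended on the mixed barcodes, which were partly defined by smooth muscle markers. Csrp1, a LIM protein, stood at 309 and 611 CPM over all beam cells (0.51, 0.47 to 0.55) and at 258 and 606 CPM without mixed barcodes (0.43, 0.39 to 0.47). Myl9, a myosin light chain, stood in ratios of 0.62 and 0.47. Of 25 contractile genes 1, Actg2, was lower over all beam cells (median log2 ratio 0.04), and of 21 without mixed barcodes Csrp1 and Myl9 were (median -0.25). Tsc22d1, a leucine zipper protein, stood at 1240 and 2603 CPM without mixed barcodes, a ratio of 0.48 (0.46 to 0.50).

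**Figure D4:**
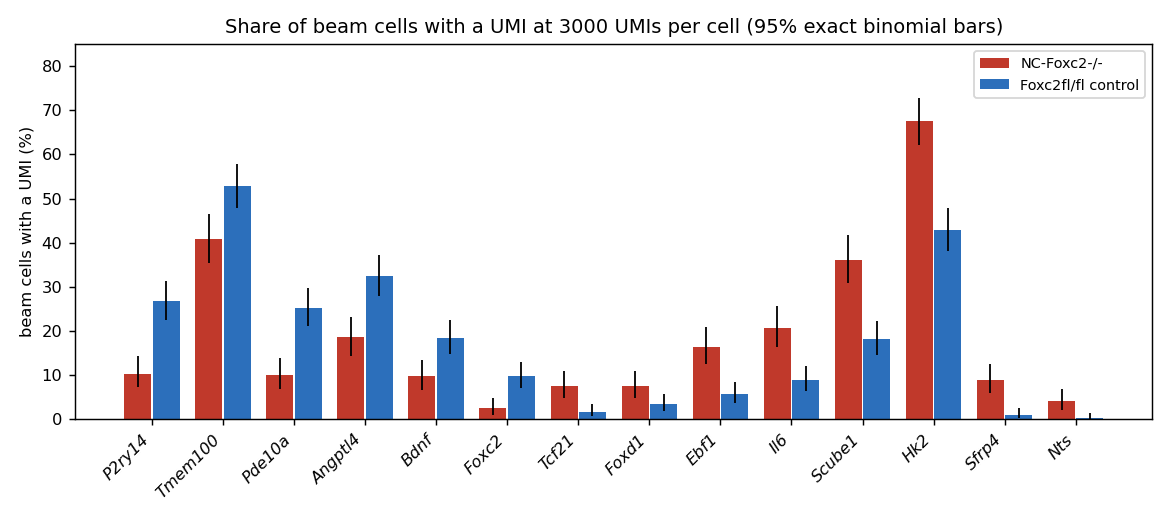
Share of beam cells without mixed barcodes (y, percent) that held a UMI of each gene after thinning to 3000 UMIs, NC-Foxc2-/- (red, 318 cells) left of Foxc2fl/fl control (blue, 412 cells), with 95% exact binomial bars. P2ry14 was seen in 10.4% and 26.7% of cells and Hk2 in 67.6% and 43.0%, while Nts was seen in 4.09% and 0.24%.

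Il6, the cytokine interleukin-6, was among the 12 highest of the ranked genes over all beam cells. It stood at 201 CPM in NC-Foxc2-/- and 56.0 CPM in control beam cells, a ratio of 3.58 (3.06 to 4.22), and without mixed barcodes at 214 and 51.2 CPM (4.18, 3.45 to 5.10). It was seen in 20.8% (16.4 to 25.6) and 8.98% (6.40 to 12.2) of cells at 3000 UMIs per cell. Within TM-2 it stood at 440 against 36.2 CPM and within TM-1 at 144 against 45.8 CPM. The ratio was at least 1.5 in 6 of 7 other classes. In Myoc and Chil1 cells, the exception, the levels were 30.5 and 26.3 CPM, a ratio of 1.16, and in Pi16 and Clec3b fibroblasts 251 and 19.95 CPM, a ratio of 12.6. Hk2, the hexokinase of the first step of glycolysis, stood at 731 and 307 CPM (2.38, 2.21 to 2.56), and was at least 1.5 times as high in 5 of 7 other classes, while another glycolytic gene, Eno1, was lower at 45.3 and 100 CPM (0.45, 0.37 to 0.55). Of 21 hypoxia and glycolysis genes Hk2 was higher and Egln3 and Eno1 lower, with a median log2 ratio of -0.32. Without mixed barcodes Hk2 and Eno1 still passed among 20 measured and Egln3 did not, with a median of -0.31.

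Scube1, a secreted and membrane-bound EGF domain protein, stood at 160 and 59.6 CPM (2.68, 2.28 to 3.15). It was seen in 36.2% and 18.2% of cells at 3000 UMIs per cell, against 1.05% and 0.29% of Kera cells. In Myoc and Chil1 cells these shares were 21.8% and 11.3%. Scube1 was at least 1.5 times as high in all 3 other classes with 50 or more UMIs. Col14a1, a collagen that associates with fibrils, stood at 180 and 70.1 CPM (2.57, 2.21 to 2.99). Tgfb3, a ligand of the TGF-beta family, stood at 121 and 55.2 CPM (2.20, 1.84 to 2.62), and Smad6, an inhibitor of BMP signals, at 28.8 and 11.2 CPM (2.56, 1.74 to 3.80). Tgfb3 was at least 1.5 times as high in 4 of 5 other classes and Smad6 in 3 of 5. Of 24 genes of TGF-beta and BMP signalling 3 were higher (Fst, Smad6 and Tgfb3) and 0 lower, with a median log2 ratio of 0.40 beside 0.01 over all genes. Without mixed barcodes Fst (225 and 127 CPM) no longer passed and Bmp6 was lower (8.02 and 16.6 CPM), and the median was 0.37 beside -0.03.

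Of 26 transcription factors measured 3 were higher, Tcf21, Ebf1 and Foxd1, and 1, Foxc2, was lower, with a median log2 ratio of 0.19. Without mixed barcodes the same genes passed of 25 measured, but the median was -0.002 beside -0.03 over all genes. Tcf21, a mesenchymal basic helix-loop-helix factor, gave 102 UMIs (36.7 CPM) and 27 UMIs (7.06 CPM), a ratio of 5.19 (3.37 to 8.26). It was seen in 38 NC-Foxc2-/- and 14 control beam cells without mixed barcodes, and 0 Myoc and Chil1 cells of either library held a UMI at 3000 UMIs per cell. Ebf1 stood at 77.6 and 34.5 CPM (2.25, 1.80 to 2.81) and Foxd1 at 24.1 and 9.94 CPM (2.42, 1.60 to 3.71).

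Some of the largest ratios came from few cells. Nts, which encodes the peptide neurotensin, gave 242 UMIs against 20 without mixed barcodes, a ratio of 15.2 (9.60 to 25.3), but 155 of the 242 lay in 2 of the 17 NC-Foxc2-/- cells that held it. At 3000 UMIs per cell 2.12% and 11.7% of endothelial cells also held Nts. Prg4, the lubricin gene, stood at 146 and 54.2 CPM (2.70, 2.21 to 3.31), with 140 of 310 UMIs in 2 cells and a like share of cells, 15.5% and 14.7%. Cxcl5 stood at 103 and 42.6 CPM (2.43, 1.93 to 3.07), with 95 of 219 UMIs in 2 cells and a UMI in 7.31% and 8.98% of cells. Angptl7 gave 85 against 14 UMIs, 61 of them in 1 cell. In beam cells of TM-1 and TM-2 alone the ratios of Prg4 and Cxcl5 lay below 1, at 0.725 and 0.576.

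Sfrp4, a secreted Wnt antagonist, gave 182 against 12 UMIs without mixed barcodes and was seen in 37 and 4 cells. Of the 37 cells 11 lay in the study's fibroblast cluster, whose share of beam cells was also higher in NC-Foxc2-/- mice, and 18 lay in TM-1 (68.3 CPM against 1.68 CPM in control TM-1 beam cells). The rise was not particular to beam cells, since Sfrp4 was at least 1.5 times as high in all 6 other classes with 50 or more UMIs. A2m, a broad protease inhibitor, stood at 238 and 76.6 CPM (3.10, 2.70 to 3.57), while Kera cells held 10390 and 7159 CPM of it, with a UMI in 97.9% and 98.9% of cells at 3000 UMIs per cell. The part of fibroblasts and of keratocyte RNA in these genes was not tested.

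Further lists are set beside shares over all genes of 2.24% higher and 3.18% lower over all beam cells. Of 16 complement, serpin and cystatin genes C2, C3 and Serpina3n were higher and Serpinb1a lower. Of these only C2 and C3 still passed without mixed barcodes, where Cd59a was higher too. C3 rested on few cells there, with 54 against 5 UMIs and 27 of the 54 in 1 cell. In beam cells of TM-1 and TM-2 alone its ratio was 0.977. Of 25 semaphorin, ephrin and Slit genes Ntn4, Plxna4 and Unc5b were higher and Robo2 lower, and all but Unc5b passed without mixed barcodes. Of 24 collagens 3 were higher (Col12a1, Col14a1 and Col5a3) and 0 lower, with a median log2 ratio of 0.29 over all beam cells and 0.08 without mixed barcodes. Of 20 elastic fibre genes 0 passed either limit, with medians of -0.06 and -0.27, and Mfap4, a microfibril-associated glycoprotein, was nearest at 658 and 1106 CPM (0.59, 0.56 to 0.63). Without mixed barcodes Mfap4 gave 1486 against 3561 UMIs, with medians per cell of 4.04 and 10.5 per 10000 UMIs. Of 20 retinoic acid and steroid genes 0 passed over all beam cells and Rbp4, a retinol carrier, did without mixed barcodes (38.2 and 17.7 CPM), with Aldh1a2, the enzyme that makes retinoic acid, at 116 and 190 CPM (0.61, 0.53 to 0.69). Of 16 Wnt genes Sfrp4 and Wif1 were higher and 0 lower over all beam cells, but Wif1 gave 180 against 22 UMIs there and 23 against 20 without mixed barcodes. Without these Rspo2 (14 against 39 UMIs) and Wnt4 (37 against 95 UMIs) were lower, and Sfrp4 was the 1 higher gene of 13.

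Interferon response, immediate early and heat shock genes were also set between the genotypes. Of 23 interferon response genes and of 27 immediate early genes 0 passed either limit, with median log2 ratios of 0.01 and -0.12, and of 20 heat shock genes 0 passed, with a median of 0.14. Isg15 stood at 959 and 1370 CPM (0.70, 0.67 to 0.73) and Ifit1 at 788 and 696 CPM (1.13). Jun stood at 1114 and 1880 CPM (0.59, 0.57 to 0.62). Mt2, a metallothionein that metals and glucocorticoids induce, stood at 2881 and 1525 CPM (1.89, 1.83 to 1.95).

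**Figure D5:**
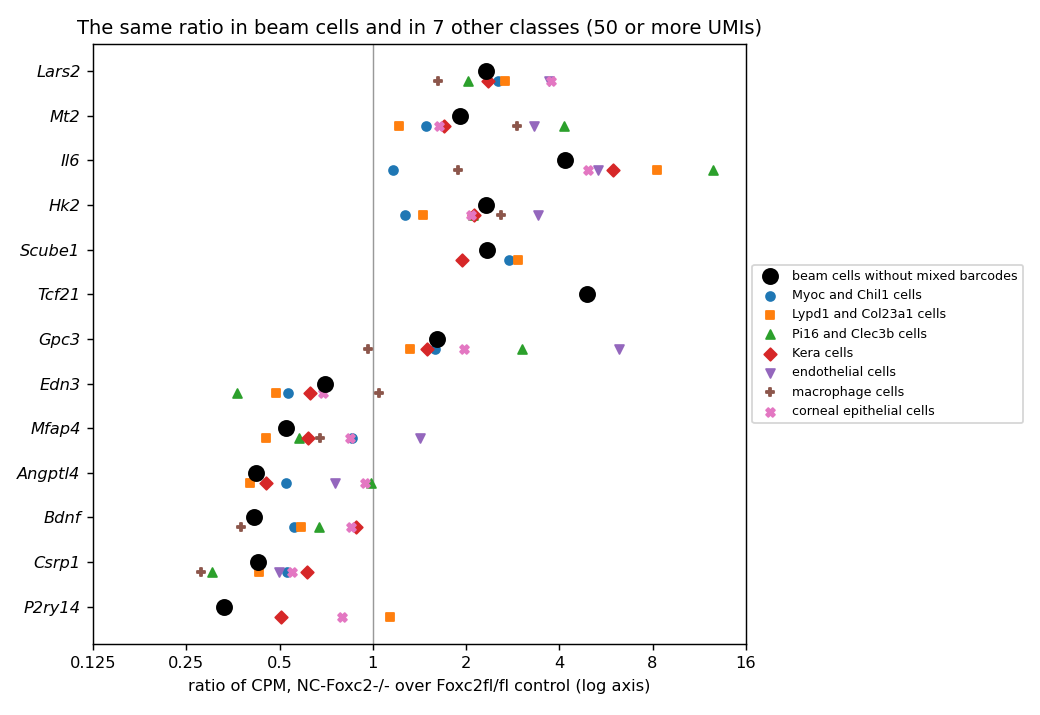
CPM ratio of NC-Foxc2-/- over Foxc2fl/fl control (log axis) for 13 genes, in beam cells without mixed barcodes (black) and in 7 other classes (coloured, where the class held 50 or more UMIs). Lars2 stood between 1.62 and 3.76 in all 7 other classes, while Il6 ranged from 1.16 in Myoc and Chil1 cells to 12.6 in Pi16 and Clec3b cells.

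Some of the higher genes were not particular to beam cells. Lars2, the mitochondrial leucyl-tRNA synthetase, stood at 272 and 106 CPM (2.56, 2.27 to 2.90), and its ratio was between 1.62 and 3.76 in each of 7 other classes. Ost4 and Snhg8 stood at 2.39 and 2.51. Of 126 higher genes with 50 or more UMIs in at least 4 of the other classes, 28 were at least 1.5 times as high in all of these and 14 in none. Of 104 lower genes 5 went the same way in all and 12 in none. Csrp1 went the same way in all, with ratios of 0.28 to 0.61 in the 7 classes, so its lower level was shared across the library. Bdnf stood at 0.56 in Myoc and Chil1 cells and 0.88 in Kera cells, and P2ry14 at 0.50 in Kera cells and 1.14 in Lypd1 and Col23a1 cells, where the levels were 29.7 and 26.1 CPM.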

How the data were processed

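Anterior eye segments of NC-Foxc2-/- and Foxc2fl/fl control mice were measured by 10x Genomics 3' single-cell RNA sequencing, 1 pooled library each. The authors ran Cell Ranger 4.0.0 on mm10 and deposited the filtered counts of UMIs per gene and barcode, which were used as deposited. A table of both libraries together was not used here. For the annotation release, the sources used here give nothing.

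UMIs were summed over the cells of a class and library and divided by their total (CPM). Ratios have exact conditional binomial 95% intervals and shares exact binomial (Clopper-Pearson) ones. The study compared cells as replicates, which was not repeated. A gene was called higher at a ratio of at least 2 and lower at most at 0.5, with 50 or more UMIs, which is a limit on size with no test behind it. A sum of 0 was set to 3 UMIs. For shares of cells with a UMI, cells were thinned to 3000 UMIs (seed 1). Cells of the source data of the study's violin plots were matched to single barcodes (96.4% to 99.0% of each cluster), and 4 TM-3 cells were not listed there. Scrublet was run through scanpy 1.11.5, with scikit-image 0.26.0, and called 445 NC-Foxc2-/- and 417 control cells, which were kept. Sums and intervals used SciPy 1.17.1 and NumPy 2.4.6 under Python 3.11.15, tables pandas 2.3.3 and anndata 0.12.19, and plots matplotlib 3.10.9. Promoters are from RefSeq.

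The members, the 27 gene lists (602 genes, of which 3 symbols with more than 1 gene ID were not counted) and the rules were chosen with earlier results of these data known. Named are the markers, Foxc1 and Foxc2, the 12 top and 12 bottom ratios of genes that reach 100 UMIs and 100 CPM, the 12 top and 8 bottom genes against Myoc and Chil1 cells, the 12 most abundant list genes, the 2 top and 2 bottom ratios of each list, and any list gene whose level is given. Ranked groups hold no haemoglobin, ribosomal protein, mitochondrial or Y-linked genes and neither Xist nor Tsix. The text names only some of these genes, picked with their values in view. The limit for mixed barcodes and the comparison of TM-2 with TM-1 were chosen after seeing the data. Alternatives changed the member rule, depth, scaling and gene filter. Some of the genes these rules name are not reported here.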

Additional observations from a re-analysis of the deposited data

How the results depend on the processing

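No paired analysis was possible because each group is 1 library and the labels pair no samples. Of 95 recomputed summary values 64 stayed within their limit of change. The share of beam cells in NC-Foxc2-/- and control mice was 6.73% and 8.06% with 1 UMI each of Edn3 and Gpc3, 2.50% and 3.40% with 3 each, 2.12% and 2.78% with the rule on counts thinned to 3000 UMIs, 5.69% and 8.81% of cells with 5 Dcn UMIs (a ratio of 0.645) and 3.29% and 4.08% without mixed barcodes. Genes higher and lower in NC-Foxc2-/- mice numbered 70 and 101 with the rule on thinned counts, 93 and 123 with beam cells thinned, 409 and 524 with a filter of 20 UMIs, and 2511 and 2017 with no filter. Lower genes numbered 136 without mixed barcodes and 132 at a limit of 10 per 10000. Against Myoc and Chil1 cells, 166 genes were higher and 120 lower on thinned counts, 547 and 455 in the control library alone, and 480 were higher in the NC-Foxc2-/- library alone. TM-2 over TM-1 gave 24 and 34 genes with 4 of the interferon response list after thinning, and 69 and 172 with a filter of 20 UMIs. Fewer UMIs or a lower filter change how many genes are tested.

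Of 96 named genes under 13 alternatives, 828 ratios kept within limits, 393 moved and 6 turned. In TM-1 and TM-2 beam cells alone these were C3 (0.977), Cxcl14 (0.408), Cxcl5 (0.576), Mal (1.43) and Prg4 (0.725), and with the rule on thinned counts Cxcl14 (0.925). The cause was not tested. Of the 828, 96 come from scaling by the median gene ratio (1.009), which is too near 1 to move any of them. The alternatives on mixed barcodes, on the highest 2 cells of a gene and on TM-2 were added after seeing the data. Precision follows the UMIs of a class, and intervals leave out differences between mice, sexes and library preparation.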
